A study of Homo sapiens with 16 samples.

Results

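The high mobility group (HMG) proteins are small, abundant chromatin proteins that are not histones. Reads were counted on 26485 genes in 16 RNA-seq libraries, and the rows of 9 HMG genes were taken by their symbols: HMGA1 and HMGA2, HMGB1, HMGB2 and HMGB3, and HMGN1, HMGN2, HMGN3 and HMGN4. All 9 passed the filter on low counts in both cell lines, so each of these 9 genes was tested in every comparison. The question asked of them was how HMGA1 behaved against its relatives when cells received a toxic siRNA.

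The libraries came from PC3, a prostate cancer line, and HeyA8, an ovarian cancer line, both of wild-type genotype per the labels. Each line gave 8 libraries, 1 at 24 h and 1 at 48 h from mock-treated cells and from cells transfected with siNT1 (the nontoxic control), siGGGGGC (named siMxy in the sample titles) or siCAG (which the study's text does not describe). The labels give 1 nM of each siRNA, whereas the study's methods name a higher dose for RNA-seq. Between 27937092 and 29971612 reads per library were counted in PC3 and between 29128446 and 31790209 in HeyA8. The 24 and 48 h libraries served as the 2 replicates of a condition, so every SD includes the difference between the time points, and nothing in the labels says that the libraries of a line came from independently grown cultures. Levels are given as CPM (counts scaled to a common library size after TMM normalization), and the standard error of a log2 fold change as SE.

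The marker genes were read first. KLK3, a marker of differentiated prostate cells that PC3 is known to lack, was at 0 CPM in all 16 libraries. The epithelial keratins KRT8 and KRT18 were present in all 16 libraries, KRT8 at 114 to 239 CPM in PC3 and 306 to 1162 CPM in HeyA8, and KRT18 at 154 to 287 CPM and 296 to 830 CPM. In HeyA8 the epithelial adhesion molecules EPCAM and CDH1 had 0.376 to 1.86 CPM and at most 0.109 CPM, against 12.9 to 28.9 CPM and 7.24 to 36.0 CPM in PC3, while the mesenchymal filament VIM had 4680 to 8077 CPM in HeyA8 and 752 to 1049 CPM in PC3. The mesenchymal cadherin CDH2 overlapped between the lines, at 115.4 to 252 CPM in PC3 and 149 to 217 CPM in HeyA8. PAX8, a marker of Müllerian tissues such as those ovarian cancers resemble, reached 66.6 to 251 CPM in HeyA8 against 1.40 to 5.99 CPM in PC3. WT1, another gene of the marker list, overlapped between the lines, at 6.84 to 18.4 CPM in HeyA8 and 8.33 to 13.2 CPM in PC3. The leukocyte marker PTPRC did not exceed 0.370 CPM in any library. The HeyA8 siCAG libraries stood apart from the rest. Their median distance to the other libraries of the line (root mean square of log2 CPM differences) was 0.956 at 24 h and 1.12 at 48 h, against 0.285 to 0.588 for the other 6 HeyA8 libraries. In PC3 the siGGGGGC library of 48 h was farthest, at 0.745, against 0.3296 to 0.641 for the other 7.

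HMGA proteins bind the minor groove of AT-rich DNA through AT-hooks and are known for high levels in embryos and tumors. HMGB proteins bend DNA with HMG boxes, and HMGB1 also acts as an alarm signal once outside the cell. HMGN proteins bind nucleosomes and compete with linker histone. HMGA2 is a textbook target of the let-7 miRNAs, which act by pairing of their seed (bases 2 to 8) with 3′ UTRs.

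Bases 2 to 7 of siGGGGGC, the 6mer seed, are complementary to GCCCCC, and HMGA1 was the only gene of the 9 with this 6mer in the 3′ UTR. In the GENCODE v44 transcript with the longest 3′ UTR (1347 nt), it occurred 5 times on the transcript's strand, and the other 8 genes had 0 in 3′ UTRs of 688 to 7421 nt. Among 19225 protein-coding genes, 30.2% had at least 1 GCCCCC in that 3′ UTR and 1.66% had 5 or more. None of the protein-coding transcripts annotated for the other 8 genes held it, and HMGA1 transcripts held between 0 and 5. The 3′ UTR of HMGA1 was also the richest in G and C, at 60.4%, against 28.8% to 42.8% in the other 8. The sites are shown because they set HMGA1 apart from its relatives, each as 30 bases of the plus strand of chromosome 6 (hg38) inside the HMGA1 3′ UTR, with GCCCCC in capitals.
HMGA1 site 1, chr6:34244948-34244977: tccgctcccaccGCCCCCaccccttcccca
HMGA1 site 2, chr6:34245399-34245428: aggggggtgctgGCCCCCaggattccccca
HMGA1 site 3, chr6:34245496-34245525: ctaggttggacaGCCCCCttcggttacagg
HMGA1 site 4, chr6:34245560-34245589: actgtggccacaGCCCCCttgccctccgcc
HMGA1 site 5, chr6:34245791-34245820: ctgctcctccctGCCCCCcaaggttctggt

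The sites began 76, 527, 624, 688 and 919 bases into the 3′ UTR. Sites 1 and 2 are followed by A (a 7mer-A1 match), sites 3 and 4 are plain 6mers, and site 5 extends to base 8 of the siGGGGGC guide strand (TGCCCCC, a 7mer-m8 match, held by 13.9% of all genes in the 3′ UTR). Cellular miRNAs with the same 6 seed bases are shown for comparison, from RefSeq (GRCh38.p14), with bases 2 to 8 in capitals.
hsa-miR-4488: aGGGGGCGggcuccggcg
hsa-miR-1237-5p: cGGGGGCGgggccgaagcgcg

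The match to bases 2 to 8 of both miRNAs, CGCCCCC, occurred 1 time in the HMGA1 3′ UTR, at site 1, and in the 3′ UTR of 6.1% of all genes. A match to the let-7 seed, CTACCTC, was found 1 time in HMGA1 and up to 4 times in HMGA2 transcripts, in a 3′ UTR of 2999 nt, although the HMGA2 transcript with the longest 3′ UTR had 0. The other 7 HMG genes had 0 in every annotated transcript, and 10.6% of all genes had at least 1. These matches are descriptions of the sequences and were not tested here as binding sites. The study lists HMGA1 among the most lowered abundant genes with GCCCCC after siGGGGGC in HeyA8. It also measured HMGA1 mRNA after pull-down of biotinylated siGGGGGC.

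In mock-treated cells HMGA1 had the highest level per kilobase of merged exons (GENCODE v44) of the 9 genes, in both lines. It had 367 and 390 CPM per kilobase in the PC3 libraries, and 671 and 1038 in those of HeyA8. HMGN2 had the next level in PC3, a mean of 128 CPM per kilobase, and HMGB2, HMGN2 and HMGB1 followed in HeyA8 with means of 152, 126 and 121 CPM per kilobase. The HMGB1 libraries overlapped in range with those of HMGB2 and of HMGN2, which did not overlap each other. HMGA2 was lowest, at 9.52 ± 1.02 CPM per kilobase in PC3 and 19.3 ± 2.95 in HeyA8 (SD, n = 2). Its merged exons add up to 15070 bases, and with the longest transcript as the length HMGB3 was lowest in HeyA8 (26.3 against 36.0 CPM per kilobase for HMGA2). By that length HMGN2 also came before HMGB2 in HeyA8, with means of 207 and 198 CPM per kilobase. Both lengths are of GENCODE v44 and not of the gene models on which the reads were counted. The counted HMGB1 gene spanned 7204 bases, fewer than its 7696 bases of merged exons. The levels per kilobase are therefore approximate, and the order of the genes depends on the lengths taken.

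**Figure D1:**
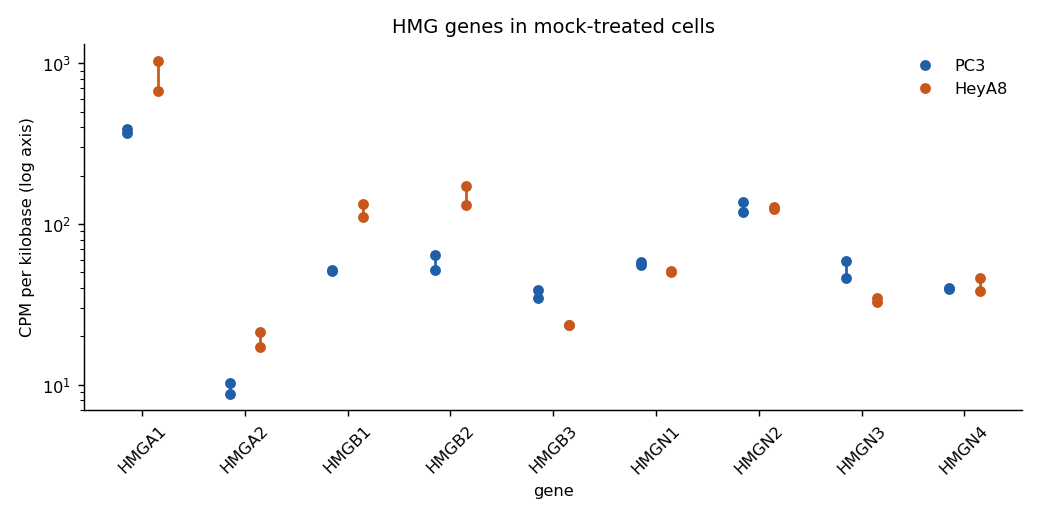
Levels of the 9 HMG genes in mock-treated PC3 and HeyA8 cells, in CPM per kilobase of GENCODE v44 merged exons on a log axis. Each point is 1 library and lines join the 24 and 48 h libraries. HMGA1 is highest in both lines, with means of 378 (PC3) and 854 (HeyA8), and HMGA2 lowest.

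Between mock-treated PC3 and HeyA8 cells, HMGB1 was lower in PC3 and HMGN3 higher. HMGB1 had 390 and 397 CPM in the PC3 libraries and 846 and 1023 CPM in those of HeyA8, a log2 fold change of -1.16 (SE 0.27, adjusted p = 0.00547 from edgeR's quasi-likelihood test over all 16 libraries). HMGN3, a nucleosome-binding protein, had 62.1 and 79.4 CPM against 43.98 and 46.3, a log2 fold change of 0.74 (SE 0.25, adjusted p = 0.0315). These 2 of 9 genes passed where 45.5% of all 15887 genes did, 19.9% lower and 25.6% higher in PC3. HMGA1 had 854 and 906 CPM in PC3 against 1561 and 2416 in HeyA8, without overlap, but its log2 fold change of -1.17 (SE 0.49) had an adjusted p of 0.0741. HMGN4, encoded by a gene without introns in its coding sequence, differed little between the lines, and its log2 fold change was -0.0011 (SE 0.19, adjusted p = 0.997).

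In PC3 cells, HMGA1 fell after siGGGGGC and was the only gene of the 9 to pass the test. HMGA1 had 782 CPM at 24 h and 1048 CPM at 48 h after siNT1, and 290 and 112 CPM after siGGGGGC. Both siGGGGGC libraries were below every other PC3 library, the 48 h library the lower. The log2 fold change was -2.22 (SE 0.43, adjusted p = 0.0274), or 4.66-fold lower, and it ranked 85 from the lowest of the 15136 genes tested. The 1 of 9 HMG genes that passed compares with 6% of all genes called lower and 9.67% called in either direction. Without the 48 h siGGGGGC library the log2 fold change of HMGA1 was -1.53 (adjusted p = 0.0223). The call rested on both siNT1 libraries, since the log2 fold change was -2.53 (adjusted p = 0.0933) without the 24 h library and -1.95 (adjusted p = 0.199) without the 48 h library, fits in which 0 genes of PC3 passed.

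HMGA2, the closest relative of HMGA1, did not follow it. In PC3 it had 151 and 145 CPM after siNT1 and 225 and 149 CPM after siGGGGGC, at 24 and 48 h. The siGGGGGC libraries were the higher at each time point, with ratios of 0.57 and 0.04 on the log2 scale, and the combined log2 fold change was 0.30 (SE 0.24, adjusted p = 0.405). Without the 24 h siGGGGGC library it was -0.049. In bulk RNA a change in the mix of cell states and a change within cells cannot be told apart. CPM is relative to the library and does not show a change in total RNA per cell.

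**Figure D2:**
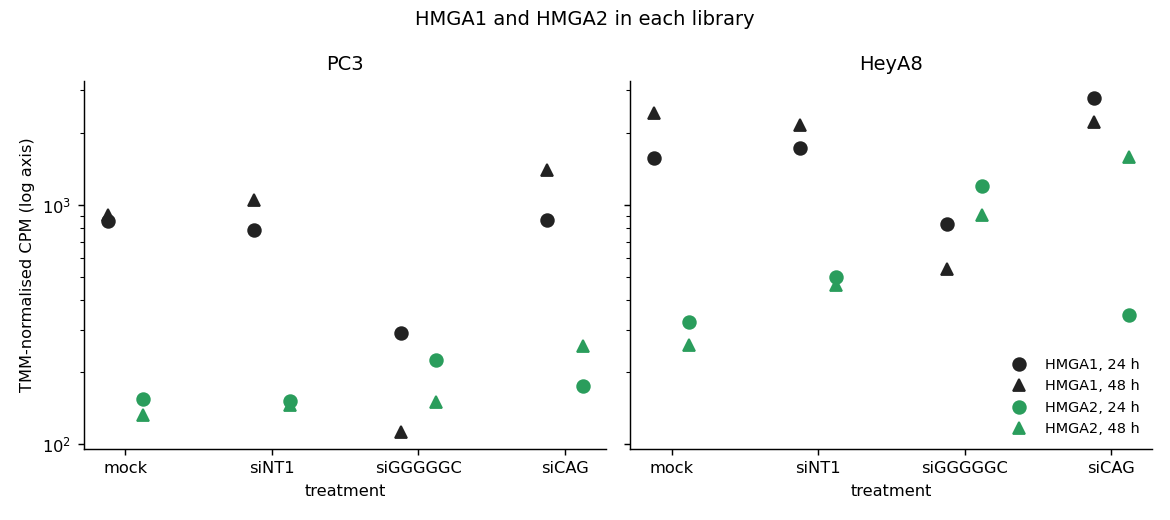
TMM-normalized CPM of HMGA1 (black) and HMGA2 (green) in each library of PC3 and HeyA8 by treatment, on a log axis, with circles for 24 h and triangles for 48 h. HMGA1 is lowest in the siGGGGGC libraries of both lines (112 to 290 CPM in PC3, 539 to 829 in HeyA8), where HMGA2 is not lowered.

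In HeyA8 cells, HMGA1 had 1723 and 2142 CPM after siNT1 and 829 and 539 CPM after siGGGGGC. As in PC3, both siGGGGGC libraries were below all other libraries of the line. The log2 fold change was -1.52 (SE 0.32, unadjusted p = 0.0022), but the adjusted p was 0.241. With all 8 libraries 0 of 13872 genes (0%) passed in edgeR's test, HMG genes included, while 1352 (9.75%) had an unadjusted p under 0.05. DESeq2 called 318 genes, HMGA1 among them (adjusted p = 0.00558). When only the 4 libraries compared were fitted, the adjusted p of HMGA1 was 5.6e-07 in edgeR's test. The fit to all 8 libraries left 3 residual degrees of freedom to estimate spread from, and a fit to 4 leaves fewer. Its small p-values are therefore weak evidence. Without the siCAG libraries, a fit chosen after seeing the data, the adjusted p of HMGA1 was 0.0351. The spread that siRNA and time point left unexplained was a coefficient of variation of 28.2% in HeyA8 and 17.97% in PC3.

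HMGA2 in HeyA8 had 500 and 461 CPM after siNT1 and 1197 and 902 CPM after siGGGGGC. The siGGGGGC libraries were thus the higher at both time points, and the siNT1 libraries were themselves above mock (323 and 260 CPM). The log2 fold change of siGGGGGC against siNT1 was 1.11 (SE 0.62) with an adjusted p of 0.626. It became 0.00855 without the siCAG libraries. With the 4 libraries alone, a fit with little left to estimate spread from, it became 3.75e-05. The siCAG libraries, which share in the estimate of spread, had 346 and 1581 CPM.

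Because HMGA1 and HMGA2 were counted in the same libraries, their ratio does not depend on normalization. HMGA1 took 83.8% and 87.8% of the reads on both genes after siNT1 in PC3 and 56.4% and 42.9% after siGGGGGC. In HeyA8 the shares were 77.5% and 82.3% after siNT1 and 40.9% and 37.4% after siGGGGGC. In 3 of the 4 siGGGGGC libraries HMGA2 therefore had more reads than HMGA1, which occurred in none of the other 12 libraries. The log2 ratio of HMGA1 to HMGA2 was lower after siGGGGGC in 4 of 4 pairs of line and time point, by -2.64 on average (SD 0.58, n = 4 pairs, range -3.27 to -2.001). The exact two-sided permutation test within pairs gave p = 0.125, the smallest value that 4 pairs allow. After siCAG the mean change was -0.24 (SD 1.22), with 3 of 4 pairs lower and an exact permutation p of 0.625.

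**Figure D3:**
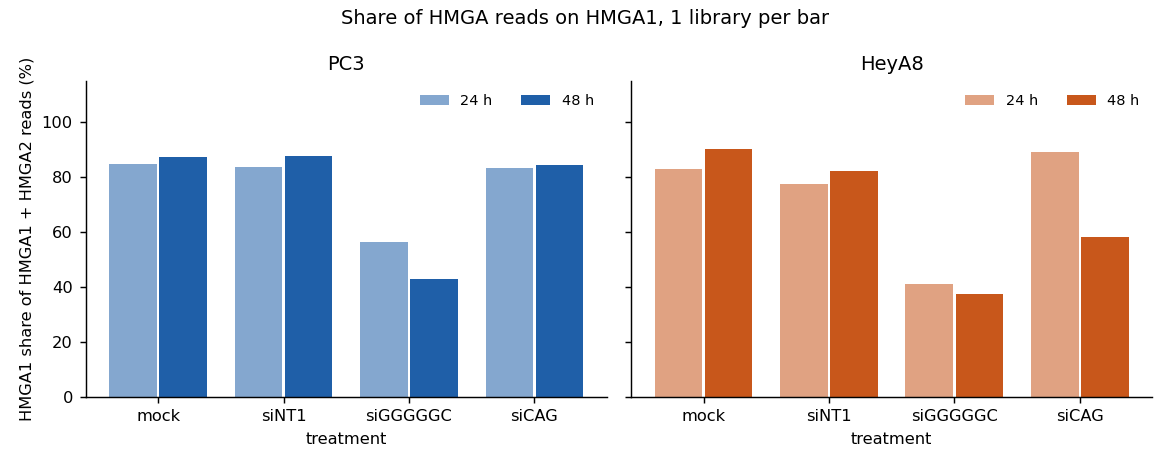
Share of HMGA1 in the summed reads of HMGA1 and HMGA2, in percent from 0, with 1 bar for each library (24 h pale, 48 h dark). The shares lie between 37.4% and 56.4% in the 4 siGGGGGC libraries, at 58.4% in the HeyA8 siCAG library of 48 h, and between 77.5% and 90.3% in the other 11 libraries.

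The ratio of HMGA1 to each of the other 7 HMG genes was also lower after siGGGGGC in 4 of 4 pairs, with mean changes between -2.34 (HMGB2) and -1.80 (HMGN3) on the log2 scale. All of these ratios share the HMGA1 values and are not independent of one another.

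None of the 7 HMGB and HMGN genes among the 9 passed the test after siGGGGGC in PC3. HMGN1, which loosens compacted chromatin, had 340 and 315 CPM after siNT1 and 415 and 483 CPM after siGGGGGC, so that the libraries did not overlap, and its log2 fold change was 0.43 (SE 0.15, adjusted p = 0.0943). HMGN2 had 397 and 351 CPM against 513 and 450, with a log2 fold change of 0.34 (SE 0.13, adjusted p = 0.117). HMGN3 had 61.8 and 59.03 CPM against 42.5 and 45.1, with a log2 fold change of -0.49 (SE 0.18, adjusted p = 0.111). With mock in place of siNT1, HMGN1 (0.64, adjusted p = 0.0243) and HMGN3 (-0.70, adjusted p = 0.0317) passed as well as HMGA1.

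The remaining HMG genes of PC3 did not pass either. HMGB2 had 142 and 155 CPM after siNT1 and 182 and 210 CPM after siGGGGGC, without overlap. HMGB1 had a log2 fold change of -0.079, HMGB2 of 0.39, HMGB3 of 0.16 and HMGN4 of -0.077, with adjusted p-values between 0.242 and 0.773. Both siGGGGGC libraries were below both siNT1 libraries for HMGA1 and HMGN3, and above them for HMGB2, HMGN1 and HMGN2, 2 and 3 of the 9 genes, where 27.3% and 29.7% of all genes did so. In HeyA8 the other 7 genes had log2 fold changes between -0.15 (HMGN4) and 0.49 (HMGB3), with adjusted p-values of at least 0.81. HMGA1 alone was below siNT1 in both libraries there (23% of all genes were), and 3 of the 9 genes were above (28.3% of all genes).

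After siGGGGGC the 9 HMG genes had a median log2 fold change of 0.16 in PC3 and 0.18 in HeyA8, beside 0.0029 and 0.0040 over all genes tested. The 9 genes together summed to 2464 and 2696 CPM after siNT1 in PC3 and 2234 and 2089 CPM after siGGGGGC. In HeyA8 they summed to 4278 and 4897 CPM after siNT1 and 4268 and 4451 CPM after siGGGGGC. Without HMGA1 the other 8 genes summed to 1681 and 1649 CPM after siNT1 and 1944 and 1977 CPM after siGGGGGC in PC3. In HeyA8 their sums were 2554 and 2755 CPM after siNT1 and 3439 and 3912 CPM after siGGGGGC, so that without HMGA1 the siGGGGGC libraries were the higher in both lines.

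An interaction term of siRNA and line, fitted to all 16 libraries, compared the siGGGGGC response of PC3 with that of HeyA8. It called 0 of 15887 genes (0%), and 1054 (6.63%) had an unadjusted p under 0.05, 0 of them among the 9 HMG genes. The log2 fold change of HMGA1 in PC3 minus that in HeyA8 was -0.69 (SE 0.61, adjusted p = 0.863). For HMGA2 it was -0.81 (SE 0.72, adjusted p = 0.866), and for HMGN3, the gene of the 9 with the lowest unadjusted p (0.0557), it was -0.67 (SE 0.31, adjusted p = 0.757).

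**Figure D4:**
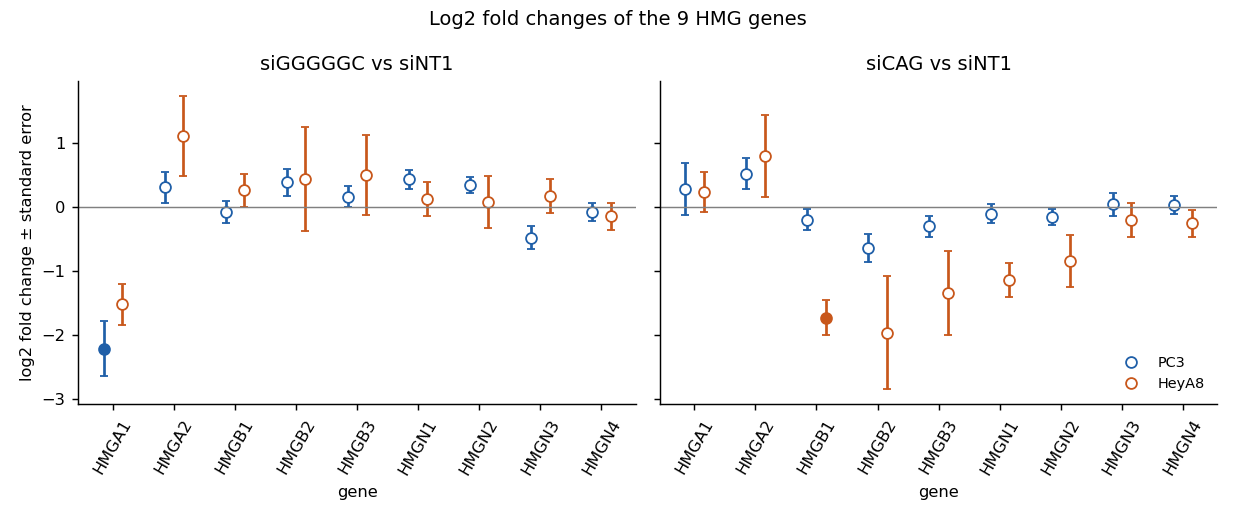
Log2 fold changes of the 9 HMG genes against siNT1 after siGGGGGC (left) and siCAG (right), from edgeR's fit to the 8 libraries of each line, with the SE; filled points have an adjusted p under 0.05. After siGGGGGC the HMGA1 values of -2.22 (PC3) and -1.52 (HeyA8) lie apart from the other 8 genes, and after siCAG the HMGB genes of HeyA8 are lowest, with HMGB1 filled.

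After siCAG in HeyA8, HMGB1 fell and was the only gene of the 9 to pass the test. The comparisons of siCAG and of siGGGGGC share their siNT1 libraries. HMGB1 had 782 and 983 CPM after siNT1 and 346 and 232 CPM after siCAG, so that both siCAG libraries were below all others of the line. Its log2 fold change was -1.73 (SE 0.27, adjusted p = 0.0196), or 3.32-fold lower. This 1 of 9 genes stands beside 4.93% of 13872 genes called lower and 7.81% called in either direction. Without the 24 h siNT1 library HMGB1 had -1.87 (adjusted p = 0.122) and it had -1.63 (adjusted p = 0.187) without that of 48 h. Its value was -1.74 (adjusted p = 0.0557) without the siGGGGGC libraries, a fit chosen after seeing the data.

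HMGB2 and HMGB3 were lowest in the 48 h siCAG library of HeyA8. HMGB2, the HMGB protein most tied to dividing cells, had 368 and 443 CPM after siNT1, 235 CPM after siCAG at 24 h and 25.0 CPM at 48 h. HMGB3, known from blood stem cells, had 87.7 and 99.5 CPM after siNT1 and 77.4 and 14.0 CPM after siCAG. With such unlike libraries the log2 fold changes of -1.97 (SE 0.88) for HMGB2 and -1.34 (SE 0.66) for HMGB3 had adjusted p-values of 0.191 and 0.225. DESeq2 called HMGB2 (adjusted p = 0.0442). Without the 48 h siCAG library HMGB2 had -0.78 (adjusted p = 0.0088), and without that of 24 h it had -4.31 (adjusted p = 1.03e-05). In both fits siCAG had 1 library, which was assumed to vary like the other groups.

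Of the HMGN genes in HeyA8, HMGN1 had 291 and 270 CPM after siNT1 and 125 and 157 CPM after siCAG, a log2 fold change of -1.15 (SE 0.27) with an adjusted p of 0.0505, just above the threshold. DESeq2 (adjusted p = 0.00314) and the fit without a filter on low counts (0.0412) called it. HMGN2 had 408 and 368 CPM after siNT1 and 392 and 123 CPM after siCAG, a log2 fold change of -0.85 (SE 0.41, adjusted p = 0.22). HMGN3 and HMGN4 had log2 fold changes of -0.20 and -0.26, with adjusted p-values of 0.648 and 0.45.

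The HMGA genes of HeyA8 did not share this pattern after siCAG. HMGA1 had 2794 and 2216 CPM, above both siNT1 libraries, with a log2 fold change of 0.24 (SE 0.31, adjusted p = 0.648). HMGA2 had 346 CPM at 24 h, below both siNT1 libraries, and 1581 CPM at 48 h, the highest value of the 16 libraries, and its log2 fold change was 0.79 (SE 0.64, adjusted p = 0.449). The direction for HMGA2 was set by single libraries: without the 48 h siCAG library it was -0.81 (adjusted p = 0.00877) and without that of 24 h it was 1.76 (adjusted p = 0.000281), again with the remaining siCAG library assumed to vary like the other groups.

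**Figure D5:**
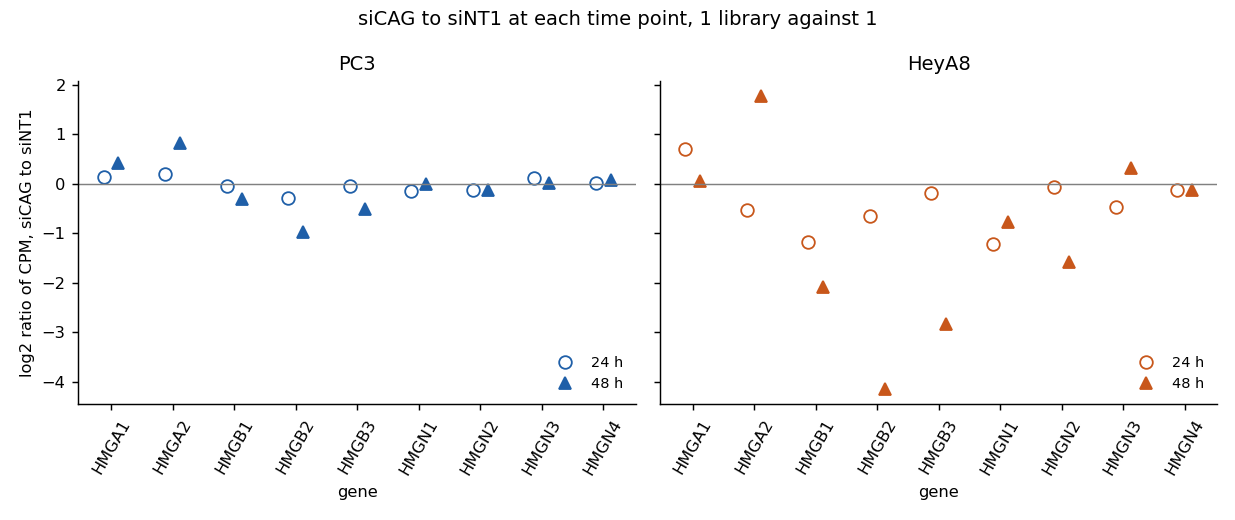
Log2 ratio of CPM after siCAG to CPM after siNT1 at 24 h (open circles) and 48 h (filled triangles) for the 9 HMG genes in PC3 and HeyA8, 1 library against 1. In HeyA8 at 48 h, HMGB2 and HMGB3 are at -4.15 and -2.83 and HMGA2 is at 1.78, while in PC3 all ratios lie between -0.98 and 0.82.

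The siCAG libraries that were low for the HMGB genes were also low for proliferation genes. The summed level of 12 proliferation genes in HeyA8 was 3905 and 4005 CPM after siNT1, 1727 CPM after siCAG at 24 h and 138 CPM at 48 h. Its most abundant gene at 24 h, MKI67, had 481 CPM then and 2.29 CPM at 48 h. Their part in the HMGB values was not tested. Of the 12 genes, 3 fell after siCAG in HeyA8 (the replication genes MCM2, -2.94, and MCM3, -2.78, and PCNA, the sliding clamp, -2.46) and 0 rose, beside 4.93% of all genes called lower and 7.81% called in either direction. The list median was -2.58 beside -0.011 over all genes tested.

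In PC3, 0 of 9 HMG genes passed after siCAG, where 1.2% of all 15136 genes did, and 1 had an unadjusted p under 0.05, as did 13.5% of all genes. That gene was HMGB2, with 142 and 155 CPM after siNT1, 116 and 78.4 CPM after siCAG, and a log2 fold change of -0.65 (SE 0.21, adjusted p = 0.247). With the 4 siCAG and siNT1 libraries alone HMGB2 (adjusted p = 0.00737) and HMGA2 (0.49, adjusted p = 0.0282) passed, and DESeq2 called 0. The fit to 4 libraries has little left to estimate spread from. HMGA1 had 859 and 1395 CPM after siCAG, with a log2 fold change of 0.27 (SE 0.41, adjusted p = 0.808). The summed proliferation genes had 2490 and 2298 CPM after siNT1 and 2104 and 1276 CPM after siCAG in PC3, where 0 of the 12 passed and the list median was -0.70. After siGGGGGC in PC3 their sums were 2665 and 2171 CPM, with MKI67 lower (-1.35, adjusted p = 0.0334) and RRM2, a subunit of ribonucleotide reductase, higher (0.92, adjusted p = 0.0281), 2 of 12 beside 9.67% of all genes, and a list median of -0.16.

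The same term was fitted for siCAG, and 0 of 9 HMG genes passed where 0.636% of all genes did. The log2 fold change in PC3 minus that in HeyA8 was 1.41 for HMGB1 (SE 0.34, unadjusted p = 0.00177, adjusted p = 0.104) and 0.93 for HMGN1 (SE 0.30, adjusted p = 0.197). These values come from the fit to all 16 libraries, where the median difference over all genes was -0.13. They need not equal the gap between the separate fits of each line. The HMGB1 decrease in HeyA8 was therefore not shown to differ from the PC3 value of -0.20 after adjustment.

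siNT1 against mock gave no call among the 9 HMG genes in edgeR's test. In PC3 0 of 9 passed (0.231% of all genes did), with log2 fold changes between -0.22 (HMGN3) and 0.21 (HMGN1), and 0 of 9 had an unadjusted p under 0.05 (9.01% of all genes did). In HeyA8 0 of 9 and 0 of all genes passed (0%), with 177 genes (1.28%) but 0 of the 9 at an unadjusted p under 0.05 and 1 gene called by DESeq2. The largest value there was that of HMGA2, at 0.72 (SE 0.62, adjusted p = 1), with both siNT1 libraries above both mock libraries and ratios of 0.63 and 0.83 on the log2 scale at 24 and 48 h. HMGA2 passed with the 4 libraries alone (adjusted p = 2.16e-14), a fit with little left to estimate spread from, so that value is weak evidence.

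Some of the members varied together over the 16 libraries, on log2 CPM centred within each line and time point. HMGB1, HMGB2, HMGB3 and HMGN2 had Pearson correlations with one another between 0.83 and 0.98. HMGN1 correlated with each of them at 0.64 to 0.78. HMGN3 and HMGN4 had correlations between -0.34 and 0.32 with the other members. HMGA1 was correlated with HMGA2 at -0.25, with HMGB2 at -0.43 and with HMGN1 at -0.71. These are descriptions over libraries that share treatments, and the HeyA8 siCAG library of 48 h is far from the others for several of these genes.

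The genes whose pattern was most like that of HMGA1 over the same 16 libraries, of 6192 with a mean of at least 1000 counts, were SEPN1 (Pearson correlation 0.98), BACE2 (0.98), GIT1 (0.98), TRAF7 (0.98) and PPP1R14B (0.97). After siGGGGGC in PC3 their log2 fold changes lay between -1.77 (PPP1R14B) and -1.12 (TRAF7), and in HeyA8 between -1.65 (PPP1R14B) and -0.77 (SEPN1). The siGGGGGC libraries were among those used to choose these genes, so their lower values there follow from the choice.

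Of 2 further HMG genes, HMGN5, a nucleosome-binding protein, fell after siGGGGGC in PC3 from 8.45 and 6.55 CPM to 2.94 and 3.69 CPM, a log2 fold change of -1.20 (SE 0.24, adjusted p = 0.0306), where 6% of all genes were called lower. Its log2 fold change after siGGGGGC in HeyA8 was -0.19 (SE 0.39, adjusted p = 0.931). After siCAG it was -0.34 in PC3 (adjusted p = 0.56) and -1.46 in HeyA8 (SE 0.40, adjusted p = 0.0713). HMGB4, known from testis, was at 0 CPM in all libraries. Of 19 proteins with an HMG box outside the family that were tested in PC3, 3 fell after siGGGGGC and 0 rose: the repressor CIC (-2.47, adjusted p = 0.00773), the replication factor WDHD1 (-1.39, adjusted p = 0.0234) and the T-cell factor TCF7 (-1.02, adjusted p = 0.0362). Their list median was -0.40 beside 0.0029 over all genes tested, of which 6% were called lower. In HeyA8 WDHD1 (-2.58, adjusted p = 0.00491) fell after siCAG, 1 of 18 tested, where 4.93% of all genes were called lower.

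Linker histones, which compete with HMG proteins for nucleosomes, gave 0 calls after either siRNA in either line. Of all genes, 9.67% passed after siGGGGGC in PC3 and 0% in HeyA8, and 1.2% and 7.81% after siCAG. The linker histone H1F0 had a log2 fold change of -1.32 (SE 0.35, adjusted p = 0.051) after siGGGGGC in PC3, just above the threshold. The list median after siGGGGGC was 0.60 in PC3 (5 tested of 7) and 0.010 in HeyA8 (4 tested), and after siCAG -0.35 and 0.58. The 0.60 was the value of HIST1H1D, which did not exceed 0.764 CPM in any library, and HIST1H1E did not exceed 1.40 CPM. HIST1H1C, at 16.4 to 53.3 CPM in PC3, had 0.61 after siGGGGGC there, and H1FX had -0.31. These medians therefore do not show a rise or fall of linker histones as a group. Receptors that HMGB1 binds outside the cell also gave 0 calls after either siRNA, with 4 tested of 6 in PC3 and 3 in HeyA8, beside the same shares of all genes.

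Of 17 genes of the SET complex and histone chaperones, 1 fell after siGGGGGC in PC3, the DNA repair endonuclease APEX1 (-1.57, adjusted p = 0.0212), beside 6% of all genes called lower. In HeyA8, where 0% of all genes passed, APEX1 had a log2 fold change of -1.67 (SE 0.36, adjusted p = 0.243). After siCAG in HeyA8 4 fell, the chromatin assembly subunits CHAF1B (-3.71) and CHAF1A (-2.62), ANP32E (-2.15), which removes the histone variant H2A.Z, and the nucleosome assembly protein NAP1L1 (-1.98), and the list median was -0.99, beside 4.93% of all genes called lower and a median of -0.011 over all genes tested. Of 15 heterochromatin and architectural genes, the cohesin subunits RAD21 (-1.42) and STAG1 (-1.07) fell after siGGGGGC in PC3, beside 6% of all genes called lower. The list median was -0.52 beside 0.0029 over all genes. In HeyA8, 0 of the 15 passed after siGGGGGC, as did 0% of all genes, with a list median of 0.063. There the log2 fold change of RAD21 was -0.39 and that of STAG1 -0.0072. After siCAG in HeyA8 4 of the 15 fell, beside 4.93% of all genes called lower. The list median was -0.86 beside -0.011 over all genes tested. Those that fell were the DNA-binding protein DEK (-2.33), the cohesin subunits SMC3 (-1.62) and RAD21 (-1.51), and the heterochromatin protein CBX5 (-1.15). No gene of these lists rose in any of these comparisons.

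Of the genes of the let-7 axis, to which HMGA2 belongs, 2 of 12 tested passed after siGGGGGC in PC3, beside 9.67% of all genes. In PC3 1 rose, the ubiquitin-conjugating enzyme CDC34 (1.35, adjusted p = 0.0147), and 1 fell, the RNA-binding protein IGF2BP3 (-0.68, adjusted p = 0.0443), and the list median was 0.083. In HeyA8, where 0% of all genes passed, 0 of 11 did, with a list median of 0.29. The let-7 inhibitor LIN28B did not exceed 0.118 CPM in any library, and LIN28A did not exceed 0.0614 CPM. After siCAG 1 of 12 let-7 axis genes passed in PC3 and 1 of 11 in HeyA8, where 1.2% and 7.81% of all genes did, with list medians of -0.094 and 0.47. In both lines this was the cell cycle phosphatase CDC25A, which fell by -1.57 in PC3 (adjusted p = 0.0188) and -4.90 in HeyA8 (adjusted p = 0.0189) on the log2 scale.

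Reads of HMG genes can be shared with processed pseudogenes. The annotation lists 47 pseudogenes of HMGB1, 38 of HMGN2, 32 of HMGN1, 29 of HMGB3 and 7 of HMGA1, so the levels of these genes are less certain than those of HMGA2 and HMGN4, which have 0. The 3 rows of HMG pseudogenes in the count table reached at most 6 counts in any library. The table has rows for RPSAP52, which overlaps HMGA2 (28 to 195 counts), and for HMGN3-AS1, on the other strand of HMGN3 (14 to 75 counts). Without a stated strand setting, reads of these 2 rows cannot be told apart from those of HMGA2 and HMGN3. By the spans in the count table, all members but HMGN2 and HMGN4 overlapped other rows, such as RPL21 for HMGB1 and U2AF1 for HMGN1. The reads of those rows were not examined.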

How the data were processed

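RNA from PC3 and HeyA8 cells (2 lines, 16 libraries) was sequenced by the study as total RNA after rRNA depletion. The deposited counts are whole numbers of exonic reads per gene that the authors obtained by trimming, alignment to hg38 (STAR per the submitters' processing notes, TopHat or STAR per the methods) and counting with HTSeq, without normalization, for 26485 genes. There were 0 unused sample columns. Here the counts were tested with edgeR 4.0.16 (R 4.3.3): TMM factors, filterByExpr, a quasi-likelihood fit with siRNA and time point as terms to the 8 libraries of a line, and Benjamini-Hochberg adjustment over all genes tested (15136 in PC3, 13872 in HeyA8, 15887 over both lines), with a threshold of 0.05. The time point, given in the labels, pairs the libraries. CPM values use TMM factors of all 16 libraries. At these totals of counted reads the spread between libraries and not the counting error set the precision of the HMG genes. DESeq2 1.42.0 and other alternatives are given in the closing section. The edgeR steps were also run on simulated counts. These had no difference between time points, unlike the data, so the run says nothing of how such differences affect the calls.

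All 9 HMG genes were named, with up to 4 called genes per list and the 5 genes most like HMGA1. Members and lists were chosen with earlier results of these data known. 3′ UTRs and gene lengths came from GENCODE v44 and miRNAs from RefSeq. No protein sequence is given and the siRNA strands are not printed. Some of the marker genes read are not reported here.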

Additional observations from a re-analysis of the deposited data

Results flagged for a closer look

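The siCAG response of HMGN4 had opposite signs in PC3 and HeyA8, with each library on its own side at both time points. The log2 fold change against siNT1 in PC3 minus that in HeyA8 was 0.18 (standard error 0.24), and the test of this difference gave an adjusted p of 0.809 in edgeR's fit over all 16 libraries. Separate fits to the libraries of each line gave 0.026 in PC3 and -0.26 in HeyA8. Their gap need not equal the value of the fit over all 16 libraries, where the median over all genes was -0.13.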

How the results depend on the processing

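The direction of HMGA1 after siGGGGGC was the same under every alternative run, in PC3 from -3.23 to -1.53 and in HeyA8 from -1.99 to -1.12 (log2, lowest and highest over all settings). Counts of genes called moved far more. In siGGGGGC against siNT1 in PC3 (1463 genes) there were 625 genes with no replicate block, that is without the time point that pairs the libraries, 2859 with DESeq2, 438 with the 4 compared libraries alone and 3200 with mock as the control (3 HMG genes), and 0 to 3702 (0 to 2 HMG genes) with 1 library left out. In siCAG against siNT1 in PC3 (182) there were 572 with DESeq2, 2346 with the 4 libraries alone (2 HMG genes), 391 against mock, 339 without the siGGGGGC libraries, and 30 to 125 with 1 library left out. In siNT1 against mock in PC3 (35) there were 82 without a filter, 18 with a mean of at least 50 counts, 6 with no replicate block, 266 with DESeq2, 253 with the 4 libraries alone, 11 without the siCAG libraries and 0 with any 1 library left out. In siGGGGGC against siNT1 in HeyA8 (0) there were 18 without a filter, 3 with no replicate block, 318 with DESeq2 (1 HMG gene), 1180 with the 4 libraries alone (2 HMG genes) and 477 without the siCAG libraries (2 HMG genes). In siCAG against siNT1 in HeyA8 (1083, 1 HMG gene) 2 HMG genes passed without a filter, and there were 2665 genes with DESeq2 (3 HMG genes), 580 with the 4 libraries alone, 266 without the siGGGGGC libraries (0 HMG genes), and 42 to 4690 (0 to 6 HMG genes) with 1 library left out. In siNT1 against mock in HeyA8 (0) there were 1 with DESeq2 and 1574 with the 4 libraries alone (1 HMG gene). Between the mock-treated lines (7234) there were 11108 with the 4 mock libraries alone (6 HMG genes). No call of any of the 9 HMG genes changed with no replicate block. The fits without the siCAG or siGGGGGC libraries were chosen after seeing the data. Among the HMG genes that did not pass, signs turned with mock as the control for HMGB3 (-0.015) and HMGN4 (0.035) after siGGGGGC and HMGN1 (0.10) and HMGN3 (-0.18) after siCAG, all in PC3. With 1 library left out (lowest to highest log2 fold change), signs turned in PC3 after siGGGGGC for HMGA2 (-0.049 to 0.55), HMGB1 (-0.32 to 0.089) and HMGB3 (-0.027 to 0.35), and after siCAG for HMGA1 (-0.26 to 0.68), HMGN1 (-0.19 to 0.016), HMGN3 (-0.14 to 0.20) and HMGN4 (-0.016 to 0.064). For siNT1 against mock in PC3 they turned for HMGA1 (-0.28 to 0.33), HMGA2 (-0.025 to 0.14), HMGB1 (-0.052 to 0.059), HMGB2 (-0.085 to 0.26), HMGB3 (-0.41 to 0.0024) and HMGN3 (-0.43 to 0.0058). In HeyA8 they turned after siGGGGGC for HMGB2 (-0.28 to 0.94), HMGB3 (-0.14 to 0.95), HMGN1 (-0.19 to 0.42), HMGN2 (-0.26 to 0.35) and HMGN3 (-0.078 to 0.45), and after siCAG for HMGA2 (-0.81 to 1.76) and HMGN3 (-0.55 to 0.099). For siNT1 against mock in HeyA8 they turned for HMGA1 (-0.40 to 0.43), HMGB1 (-0.20 to 0.040), HMGB2 (-0.35 to 0.77), HMGB3 (-0.39 to 0.38), HMGN1 (-0.11 to 0.38), HMGN2 (-0.29 to 0.23) and HMGN3 (-0.18 to 0.36). The cause of these changes was not tested. Where leaving out a library left 1 in a condition, that library was assumed to vary like the other groups. Fits to 4 libraries alone had little left to estimate spread from.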
